A study of Mus musculus and Homo sapiens with 10 samples.

Results

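The mouse protein-coding genes numbered Zfp900 to Zfp999 encode zinc finger proteins. They were chosen by symbol alone, and 64 of the 21523 protein-coding genes analysed on chromosomes 1 to 19 and X had such a symbol, Zfp955a and Zfp955b included. A further 3 symbols in this number range, Zfp969, Zfp986 and Zfp989, had no position in the annotation used and were not analysed here. The 64 genes lay on 13 chromosomes, with 15 on chromosome 17, 14 on chromosome 4, 10 on chromosome 2 and 9 on chromosome 7. Each was placed by its midpoint in the mm10 build against 2 deposited lists of lamina-associated domains (LADs), stretches of chromatin held at the nuclear lamina.

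Both lists came from N2A cells, an established mouse neuroblastoma line, in which a fusion of the lamina protein LaminB1 to the bacterial adenine methyltransferase Dam was induced with 2 µg/mL doxycycline. The fusion marks GATC sites of the DNA near the lamina, and the marks were read on Nanopore instruments for 1 list and on Illumina instruments for the other. The N2A samples were LaminB1-Dam by Nanopore (1), a sample labelled 10% LaminB1-Dam (1), Dam alone by Nanopore (1), LaminB1-Dam by Illumina (2), Dam alone by Illumina (1) and Wildtype (1). Neither the labels nor the files say which of them entered each list, and the files used hold no expression values, so the identity of the line could not be checked against marker genes. The lists hold intervals without values per sample. Depth is therefore unknown, no spread between replicates exists, and the shares below are descriptions with no test.

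Zinc finger proteins of the KRAB type bind DNA through arrays of C2H2 zinc fingers and recruit the corepressor Trim28, which brings the histone methyltransferase Setdb1 and heterochromatin proteins to the site. Many of their targets are endogenous retroviruses and other transposable elements. The genes multiply by local duplication, so they often stand in clusters of near copies, and several mouse clusters arose in the rodent lineage. LADs are in general poor in genes and low in transcription.

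Most of the Zfp900 to Zfp999 genes lay in LADs. In the Nanopore list, 42 of 64 members (65.6%) lay in a LAD by midpoint, where 28.9% of all protein-coding genes did. In the Illumina list 38 of 64 (59.4%) did, where 25.4% of all protein-coding genes did. By both lists together, 37 members lay in LADs of both methods (24.7% of all protein-coding genes), 5 in Nanopore LADs only (4.18%), 1 in an Illumina LAD only (0.674%) and 21 in neither (70.4%). Counting any overlap of the gene body, 44 members (68.8%) touched a Nanopore LAD and 39 (60.9%) an Illumina LAD, where 30.4 and 26.6% of all protein-coding genes did. Counting only genes wholly inside, 40 (62.5%) and 37 (57.8%) did so, where 26.8 and 23.5% of all protein-coding genes did. Members share LADs: the 42 genes stood in 17 Nanopore LADs and the 38 in 17 Illumina LADs, so they are not 64 separate observations. The Nanopore LADs that held members had a median width of 1.7 Mb, from 0.1 to 4.28 Mb, and the Illumina LADs 1.24 Mb, from 0.16 to 4.18 Mb. Over all LADs, with or without a gene, the medians were 0.69 and 0.66 Mb. A wide LAD has more room for the midpoint of any gene. LADs that hold any gene were not taken as a comparison, so the widths show no trait particular to the members.

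Inside LADs, member midpoints lay a median of 339.5 kb from the nearest Nanopore border and 244.6 kb from the nearest Illumina border, against 289.9 and 259.9 kb for all protein-coding genes in LADs. Outside, the medians were 150.6 kb by Nanopore and 181.7 kb by Illumina, against 483.9 and 583.2 kb for all genes outside. The outside medians of the members were thus below those of all genes. Since LAD borders stand on a grid of 20 kb, a midpoint within 20 kb of a border is a close call. There were 5 such members by Nanopore and 6 by Illumina.

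The promoters of the member deepest in LADs of both lists and of the member farthest outside both show what sequence lies at either end of this range. Both are shown over 300 bases, 250 before and 50 after the annotated start, from RefSeq on GRCm38.p6, the assembly behind mm10, with capitals at GATC, the site that Dam marks, and at CG. Zfp953 on chromosome 13 lay 1150.1 kb inside a Nanopore LAD and 1210.1 kb inside an Illumina LAD, and its promoter held 0 GATC and 8 CG. Zfp955b on chromosome 17 lay 2258.4 and 2198.4 kb outside, and its promoter held 2 GATC and 8 CG.
Zfp953, chr13:67360523-67360822, minus strand: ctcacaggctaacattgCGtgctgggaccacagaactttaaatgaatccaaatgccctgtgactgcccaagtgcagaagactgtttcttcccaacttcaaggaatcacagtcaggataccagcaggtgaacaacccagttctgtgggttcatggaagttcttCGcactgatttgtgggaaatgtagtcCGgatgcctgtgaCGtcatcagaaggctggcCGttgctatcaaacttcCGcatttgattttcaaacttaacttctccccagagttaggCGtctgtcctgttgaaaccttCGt
Zfp955b, chr17:33289294-33289593, plus strand: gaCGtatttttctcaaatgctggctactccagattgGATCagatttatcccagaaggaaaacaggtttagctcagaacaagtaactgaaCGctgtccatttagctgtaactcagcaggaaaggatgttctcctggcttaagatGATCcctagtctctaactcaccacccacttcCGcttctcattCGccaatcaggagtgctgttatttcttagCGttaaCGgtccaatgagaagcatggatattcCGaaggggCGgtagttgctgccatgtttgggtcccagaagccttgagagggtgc

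**Figure D1:**
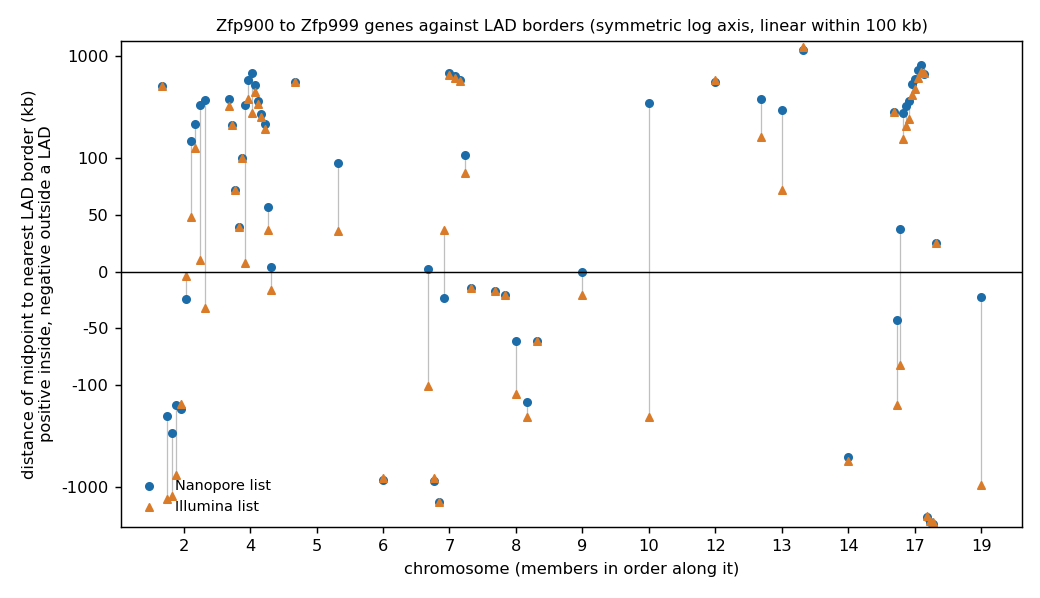
Distance in kb from each member's midpoint to the nearest LAD border, by chromosome, with circles for the Nanopore list, triangles for the Illumina list and a grey line joining both values of a gene; values above 0 are inside a LAD, and the axis is linear within 100 kb of 0 and logarithmic beyond. The 14 genes of chromosome 4 sit above 0 by Nanopore and 13 of them by Illumina, whereas the 5 genes of chromosome 8 sit below 0 by both.

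Members with at least 2 other zinc finger genes nearby, by symbol, were more often in LADs than members with fewer. A member was called clustered where at least 2 other zinc finger genes, by symbol, had midpoints within 500 kb, and scattered otherwise. Scattered members thus include some with 1 such neighbour. Genes with a Gm symbol were not counted as zinc finger genes, and several of them stood between the members of chromosome 2. Of 48 clustered members, 36 (75%) were inside by Nanopore and 31 (64.6%) by Illumina. Of 16 scattered members, 6 (37.5%) and 7 (43.8%) did. Members of a cluster share LADs, so these counts are not of separate observations. Counted by member, the difference was 37.5 percentage points by Nanopore and 20.8 by Illumina. It was not steady in size: with a window of 250 kb it came to 17.4 and 6.61 points, with LADs widened by 20 kb at each end to 18.8 and 4.17 points, and with 1 neighbour as the bar to 54.0 and 47.1 points, where 6 members were left as scattered. With 3 neighbours as the bar the Nanopore difference was 21.0 points. With a window of 1 Mb the Illumina difference was 11.1 points, and without chromosome 2 it was 10.6 points.

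The share did not climb steadily with the number of neighbours. Members with 2 to 4 zinc finger neighbours lay in Nanopore LADs in 17 of 21 cases, members with 5 to 9 in 12 of 15, and members with 10 or more in 7 of 12. By Illumina the counts were 14 of 21, 11 of 15 and 6 of 12. In the last class, Zfp940 on chromosome 7 and Zfp948, Zfp952, Zfp955a and Zfp955b on chromosome 17 lay outside both lists. Of the 16 scattered members, 6 stood in a run of members all the same, each with 1 zinc finger neighbour by symbol. Of these, Zfp968, Zfp966, Zfp967 and Zfp973 on chromosome 2 lay in neither list, and Zfp970 and Zfp990 in both. The label given to these genes thus affects the difference. Taking as clustered the members with another member within 500 kb, 33 of 45 (73.3%) were in a LAD by Nanopore and 30 (66.7%) by Illumina, against 9 (47.4%) and 8 (42.1%) of the 19 that stood alone.

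**Figure D2:**
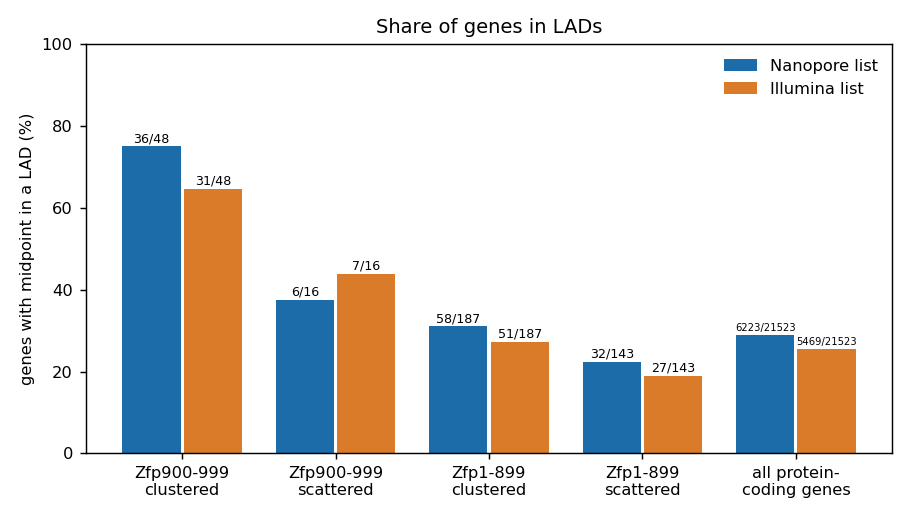
Percent of genes with their midpoint in a LAD of the Nanopore list (blue) and the Illumina list (orange), with counts over the bars, for clustered and scattered Zfp900 to Zfp999 genes, clustered and scattered Zfp1 to Zfp899 genes and all protein-coding genes. Clustered members stand at 75 and 64.6%, and the other bars at 43.8% or below.

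The shares of the lower-numbered Zfp genes as a group stood near those of all genes. Of 330 genes from Zfp1 to Zfp899, 90 (27.3%) were in a LAD by Nanopore and 78 (23.6%) by Illumina. Cut into 9 classes by the first digit of a number of 3 digits, with Zfp1 to Zfp99 as a class of their own, their Nanopore shares ran from 10.3% for the genes numbered in the 200s to 39% for those in the 700s, against 65.6% for the 900s. Clustered lower-numbered genes stood at 31.0% by Nanopore and 27.3% by Illumina (58 and 51 of 187), and scattered ones at 22.4% and 18.9% (32 and 27 of 143). That difference depended on the chromosomes counted. Without chromosome 13, clustered genes stood at 21.0% and 16.7% (34 and 27 of 162). Scattered ones then stood at 21.6% and 18.7% (29 and 25 of 134), so the direction turned. Leaving out chromosome 13 was not planned, and chromosome 7, where clustered genes had low shares, was not left out in turn. A high share was not limited to the members, however. On chromosome 13, 24 of 25 clustered lower-numbered genes lay in LADs of both lists, and on chromosome 7, 9 of 72 were in a LAD by Nanopore and 7 by Illumina.

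Genes that stand next to the members lay in LADs more often than zinc finger genes elsewhere. Of 101 other zinc finger genes within 500 kb of a member, 44 (43.6%) were in a LAD by Nanopore and 39 (38.6%) by Illumina, against 54 (20.8%) and 47 (18.1%) of 259 farther away. Of 436 neighbours without a zinc finger symbol, 153 (35.1%) and 133 (30.5%) were, where 28.9 and 25.4% of all protein-coding genes were. Both groups of neighbours had lower shares than the members themselves.

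Local gene density differed between these sets, and its part in the shares was not tested. Members had a median of 12 protein-coding genes within 500 kb, all protein-coding genes 15, and Zfp1 to Zfp899 genes 22.5. Clustered members had a median of 14 and scattered members 8. Among genes with 0 to 9 such neighbours, 13 of 18 members (72.2%) lay in Nanopore LADs, against 37.7% of Zfp1 to Zfp899 genes and 40.9% of all genes. With 10 to 19 neighbours, 24 of 32 members (75%) did, against 34.9% and 24.0%. With 20 or more, 5 of 14 members (35.7%) did, against 20.9% and 23.2%. By Illumina the members' shares in these classes were 77.8%, 62.5% and 28.6%, and those of all genes 35.2%, 20.6% and 21.3%. Within each density class the members' share was the highest of these 3 sets by either list.

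**Figure D3:**
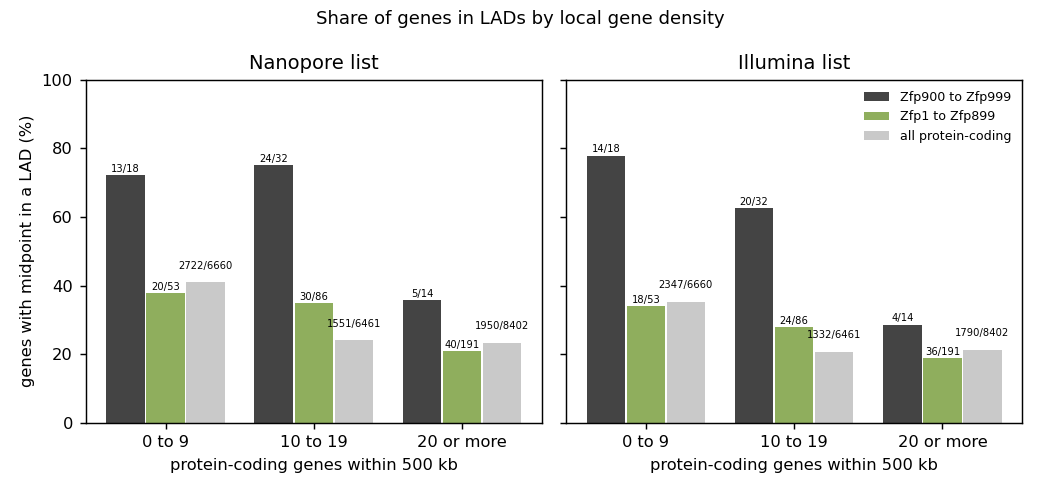
Percent of genes with their midpoint in a LAD, for genes with 0 to 9, 10 to 19 and 20 or more other protein-coding genes within 500 kb, by Nanopore (left) and Illumina (right), with counts over the bars. Zfp900 to Zfp999 genes (dark) stand at 72.2, 75 and 35.7% by Nanopore, above Zfp1 to Zfp899 genes (green) and all protein-coding genes (grey) in each class.

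Joined where successive midpoints were at most 500 kb apart, the members formed 28 loci, of which 9 held several members. By Nanopore, 4 of these 9 had every member in a LAD, 4 had none and 1 was mixed. By Illumina, 2 had every member in a LAD, 4 had none and 3 were mixed. Of the 19 loci of a single member, 9 lay inside by Nanopore and 8 by Illumina. Counted by locus, then, those of several members were not more often wholly in LADs than those of a single member. That bar is stricter for loci of several members, since a locus of a single member cannot be mixed. In the mixed loci most members were inside.

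Chromosome 4 held the fullest locus, with 14 members over 2.34 Mb (chr4:145510759-147849126). All 14 lay in Nanopore LADs and 13 in Illumina LADs, on a chromosome where 19.1 and 18.2% of the other protein-coding genes did. Nanopore LADs covered 88.5% of the locus in 3 pieces and Illumina LADs 82.5% in 4. Zfp990 and Zfp980 stood in the first piece, which ended at 145900000 in both lists. Zfp987 was the 1 member in a piece of 260 kb with the same borders in both lists (146040001 to 146300000), 72.0 kb from the nearest one, and shared it with Zfp600. Between these pieces lay gaps of 140 and 120 kb, common to both lists, that held no member midpoint.

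The rest of the chromosome 4 locus was 1 Nanopore LAD of 1.42 Mb (146420001 to 147840000) with 11 members. The Illumina list broke it by a gap of 120 kb (146760001 to 146880000). That gap lay inside Zfp993, an annotated span of 478.6 kb that was 100% inside Nanopore LADs and 74.9% inside Illumina LADs. Zfp993 overlaps Zfp981, and Zfp978, 267.1 kb long, contains Zfp991 and Zfp988, so these spans do not give independent calls. The deepest by Nanopore was Zfp991, at 683.7 kb, and the deepest by Illumina was Zfp988, at 439.8 kb. The locus ended at Zfp933, with 65.1% of its body and its midpoint, by 3.9 kb, in the Nanopore LAD. In the Illumina list Zfp933 lay 16.1 kb outside, less than a grid step, and the next LAD on that side was 4740 kb farther on by Nanopore and 4800 kb by Illumina. The other 4 protein-coding genes of the locus, Gm13212, Zfp600, Rex2 and Zfp534, lay in both lists.

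Chromosome 17 held a locus of 10 members over 1.3 Mb (chr17:21565816-22867309), and 1 LAD of each list covered it except at its start. The Nanopore LAD ran from 21620001 to 23520000 and the Illumina LAD from 21740001 to 23540000. Zfp995, Zfp942, Zfp943, Zfp947, Zfp994, Zfp944, Zfp946 and Zfp945 lay in both, from 274.5 kb (Zfp995) to 820.4 kb (Zfp946) inside by Nanopore and from 154.5 to 700.4 kb by Illumina. Zfp983 lay 37.8 kb inside the Nanopore LAD and 82.2 kb outside the Illumina LAD. Zfp948, the first gene, lay outside both, by 42.4 and 157.6 kb. Of 9 other genes of the locus, 9 were in the Nanopore LAD and 6 in the Illumina LAD; Gm10509, Zfp760 and Zfp229, next to Zfp983, made the difference.

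The other 5 members of chromosome 17 fell on both sides. Zfp960 lay 283.1 kb inside a LAD of both lists and Zfp959 25.0 kb inside. Zfp952, Zfp955a and Zfp955b formed a locus of 3 with 11, 12 and 11 zinc finger neighbours, and lay at least 1959.3 kb from a Nanopore LAD and 1899.3 kb from an Illumina LAD. No other member was farther from a LAD by either list. Across the chromosome, 11 of 15 members were inside by Nanopore and 10 by Illumina, against 22.8 and 22.2% of the other protein-coding genes.

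Chromosome 2 held near copies inside and outside LADs. From Zfp968 to Zfp973 (chr2:175372034-176681090), 5 members, Zfp968, Zfp965, Zfp966, Zfp967 and Zfp973, lay in neither list, nor did the 9 other protein-coding genes between them. In this stretch of 1.3 Mb, 40 kb were in Nanopore LADs and 1.1 kb in Illumina LADs. From Zfp970 to Zfp931 (chr2:177464742-178078425), all 4 members lay in Nanopore LADs and 3 in Illumina LADs, as did the 4 other genes Gm14322, Gm14325, Gm14326 and Gm14428 in both. Zfp970 stood 148.0 kb inside by Nanopore and 48.0 kb by Illumina, Zfp972 214.4 and 125.6 kb, and Zfp971 329.6 and 10.4 kb. Zfp931 stood 372.4 kb inside a Nanopore LAD and 32.4 kb outside the Illumina LAD, in an Illumina gap of 300 kb. Zfp971 was a close call by Illumina. So was Zfp973, 4.2 kb outside by Illumina with 10.3% of its body in the LAD, and 24.2 kb outside by Nanopore. Zfp937, at chr2:150218077-150246738, lay apart from the others and 507.6 kb inside LADs of both lists. Across chromosome 2, 5 of 10 members were inside by Nanopore and 4 by Illumina, against 32.3 and 27.9% of the other protein-coding genes.

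Some of these chromosome 2 genes had near-identical promoters inside and outside LADs. Identity was taken as 100% less the edits between both 300-base windows, so a shift of the annotated start counts as a difference. Zfp965, in neither list, and Zfp971, in both but a close call by Illumina, were 97% identical. Zfp966, in neither list, was 96.0% identical to Zfp970, in both, and its window was 100% identical to that of Zfp967. Zfp968 and Zfp973, both outside, were 99.7% identical. Of the 20 chromosome 2 pairs of a gene in neither list and a gene in both, 6 reached 80% identity, all of them Zfp970 or Zfp971 set against Zfp965, Zfp966 or Zfp967. The other 14 ran from 56.3 to 78.7%. The promoters of 2 such pairs are shown, again with GATC and CG in capitals, since each pair puts nearly the same sequence inside and outside LADs.
Zfp965, chr2:175469775-175470074, plus strand: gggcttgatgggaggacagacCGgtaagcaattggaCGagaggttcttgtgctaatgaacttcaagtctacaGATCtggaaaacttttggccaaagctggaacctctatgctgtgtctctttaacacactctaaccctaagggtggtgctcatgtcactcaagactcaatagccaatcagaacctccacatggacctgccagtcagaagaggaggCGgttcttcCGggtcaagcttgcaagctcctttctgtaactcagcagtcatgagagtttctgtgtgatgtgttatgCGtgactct
Zfp971, chr2:178023034-178023333, plus strand: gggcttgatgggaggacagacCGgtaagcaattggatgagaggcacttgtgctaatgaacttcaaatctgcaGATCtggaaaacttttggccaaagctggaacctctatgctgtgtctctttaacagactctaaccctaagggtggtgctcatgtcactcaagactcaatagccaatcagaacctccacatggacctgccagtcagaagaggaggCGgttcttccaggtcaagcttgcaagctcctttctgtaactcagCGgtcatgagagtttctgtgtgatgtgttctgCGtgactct
Zfp966, chr2:175931051-175931350, minus strand: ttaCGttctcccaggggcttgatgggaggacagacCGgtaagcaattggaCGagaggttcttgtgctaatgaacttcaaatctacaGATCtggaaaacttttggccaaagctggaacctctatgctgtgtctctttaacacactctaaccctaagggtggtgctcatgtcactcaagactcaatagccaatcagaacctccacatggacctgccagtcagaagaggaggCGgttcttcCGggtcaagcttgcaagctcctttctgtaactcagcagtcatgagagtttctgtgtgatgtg
Zfp970, chr2:177464492-177464791, plus strand: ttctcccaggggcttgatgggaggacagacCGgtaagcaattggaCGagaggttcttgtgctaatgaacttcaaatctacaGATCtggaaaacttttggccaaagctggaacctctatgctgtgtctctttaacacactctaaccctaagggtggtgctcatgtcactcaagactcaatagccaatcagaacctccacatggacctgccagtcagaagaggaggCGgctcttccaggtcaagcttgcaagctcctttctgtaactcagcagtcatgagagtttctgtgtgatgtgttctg
Each of the 4 windows held 1 GATC. Zfp965 and Zfp966 held 5 CG each, Zfp971 4 and Zfp970 3. Reads from copies as close as these can match several places, and the labels and files do not say how such reads were treated. Its part in the calls was not tested.

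**Figure D4:**
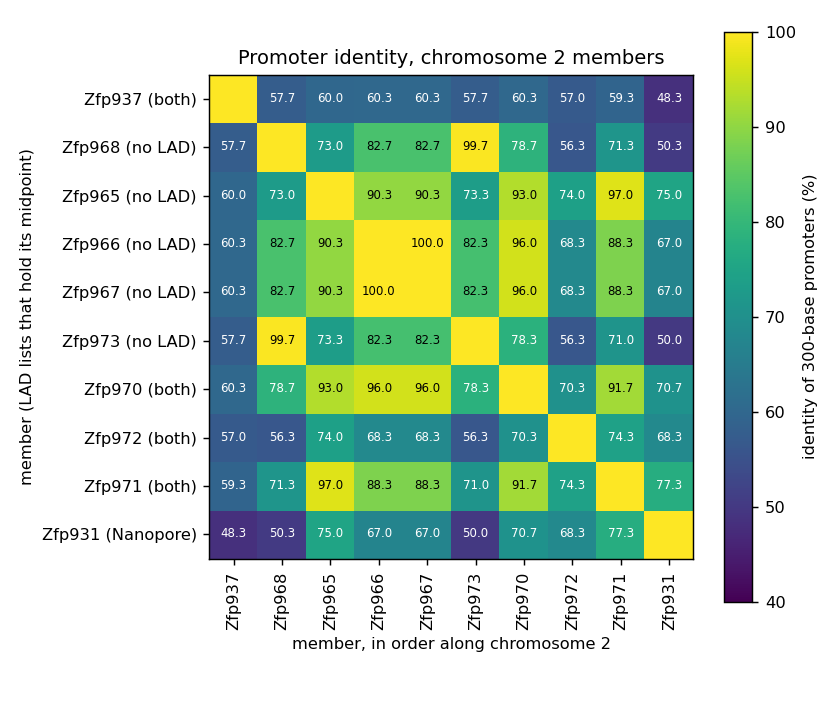
Identity in percent of the 300-base promoters of the 10 members on chromosome 2, in order along the chromosome, with the LAD lists that hold each gene's midpoint in brackets (no LAD, both lists or Nanopore alone). Zfp965 and Zfp971 reach 97% and Zfp966 and Zfp970 96.0%, with 1 gene of each pair outside and 1 inside the LADs of both lists. Zfp971 is a close call by Illumina, 10.4 kb inside.

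On chromosome 7 the locus of Zfp977, Zfp976, Zfp975 and Zfp936 (chr7:42579397-43192109) lay wholly in 1 LAD of each list, 3.64 Mb wide by Nanopore and 3.66 Mb by Illumina. Zfp977 was 674.0 and 654.0 kb inside and Zfp936, near the end, 106.9 and 86.9 kb. The 5 genes between them, among them the pheromone receptor genes Vmn2r62, Vmn2r63 and Vmn2r126, lay in the same LADs. Zfp939, ahead of that LAD, was the single member in an Illumina LAD only: it lay 36.5 kb inside an Illumina LAD of 0.16 Mb and 23.5 kb outside the nearest Nanopore LAD. Zfp954 was in a Nanopore LAD only, of 0.1 Mb, with its midpoint 1.9 kb inside and 78.3% of its body covered, and lay 101.9 kb outside by Illumina. Zfp974, Zfp940 and Zfp941 lay in neither, with Zfp940 1377.0 kb from a Nanopore LAD among 14 zinc finger neighbours and Zfp941 14.8 kb from a LAD of both lists. Across chromosome 7, 5 of 9 members were inside by Nanopore and 5 by Illumina, against 34.7 and 32.4% of the other protein-coding genes.

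On chromosome 8 none of the 5 members lay in a LAD of either list, where 24.2% of the other protein-coding genes did by Nanopore and 21.1% by Illumina. At chr8:69209018-69749962 a LAD stood between members: Zfp930 lay 20.2 kb before it in both lists, and Zfp964 and Zfp963 lay 60.8 and 145.8 kb beyond the Nanopore LAD and 120.8 and 205.8 kb beyond the Illumina LAD. That LAD ran from 69240001 to 69600000 by Nanopore and to 69540000 by Illumina, covering 66.6 and 55.5% of the locus. It held D130040H23Rik, Gm10033, Gm9495 and Gm7697, while Zfp868 and Zfp869, next to Zfp964, lay outside with the members. Zfp961 lay 60.7 kb outside in both lists, and Zfp958 17.1 kb.

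**Figure D5:**
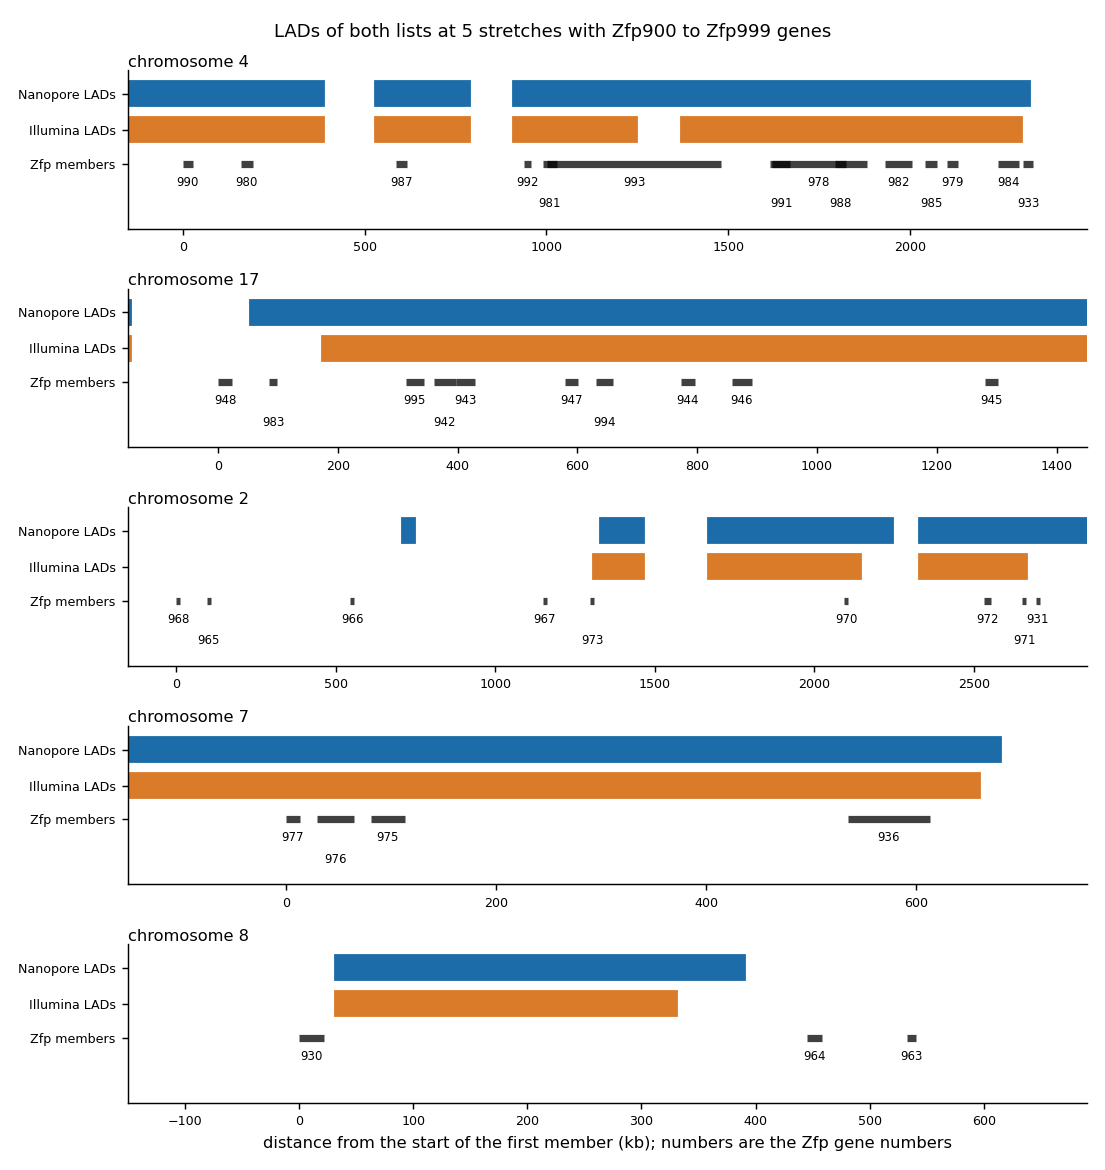
LADs of the Nanopore list (blue) and the Illumina list (orange) and the bodies of Zfp members (black) at 5 stretches, against distance in kb from the start of the first member. On chromosomes 4, 17 and 7 LADs cover most members, on chromosome 2 the midpoints of the first 5 members stand outside LADs and those of the last 4 within them, apart from Zfp931 in the Illumina list, and on chromosome 8 the 3 members flank a LAD.

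The remaining members stood in small numbers per chromosome. All 3 of chromosome 13 lay in both lists, where 37.5% of its other protein-coding genes were inside by Nanopore and 33.4% by Illumina. Of its Zfp1 to Zfp899 genes, 79.4 and 76.5% were. Zfp935 stood 380.1 kb inside by Nanopore and 160.1 kb by Illumina, and Zfp934 291.9 and 71.9 kb. Zfp953 stood among 22 zinc finger neighbours in a LAD of 4.18 Mb in each list. Zfp938 on chromosome 10 was in a Nanopore LAD only, and by a wide margin: it lay 346.9 kb inside a Nanopore LAD of 0.7 Mb and 206.9 kb outside the nearest Illumina LAD. Zfp949 on chromosome 9 missed a Nanopore LAD by 0.4 kb, with 48.1% of its body inside, and an Illumina LAD by 20.4 kb. Zfp950 on chromosome 19 had 24.0% of its body in a Nanopore LAD and lay 957.3 kb from an Illumina LAD. Zfp956 on chromosome 6 and Zfp957 on chromosome 14 lay in neither, by 839.3 and 510.1 kb in the Nanopore list.

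The members called scattered in LADs of both lists were Zfp932, Zfp951, Zfp960, Zfp970, Zfp990 and Zfp996. Zfp990 and Zfp970 were not isolated: they stood in the chromosome 4 locus and in a chromosome 2 locus described above, each with 1 zinc finger neighbour by symbol. Zfp932, which encodes a KRAB zinc finger repressor of endogenous retroviruses, stood on chromosome 5 (chr5:109996502-110012266), 95.6 kb inside by Nanopore and 35.6 kb by Illumina. Zfp951, also on chromosome 5 (chr5:104802246-104860157), stood 548.8 kb inside in both lists. Zfp996 on chromosome 12 (chr12:18387491-18406758) had 0 zinc finger neighbours and 4 protein-coding neighbours and stood 557.1 and 577.1 kb inside. It was the 1 member in a LAD without any zinc finger neighbour; the other 5 such members, Zfp941, Zfp949, Zfp950, Zfp957 and Zfp958, lay outside both lists.

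Promoters of 57 of the 64 members were in the RefSeq table. GATC, searched as these 4 letters, which read the same on both strands, was present in 30 of 57 (52.6%), against 46.3% of 17274 promoters of protein-coding genes. By LAD state it was present in 16 of 31 promoters of members in both lists (51.6%) and in 11 of 20 of members in neither (55.0%). CG, which also reads the same on both strands, was present in 100% of member promoters and 95% of all. Members held a median of 8 CG per promoter, against 14 for all protein-coding genes and 15.5 for Zfp1 to Zfp899 genes. Over all protein-coding genes the median was 3 CG in LADs of both lists and 18 in neither. Among members it was 8 and 8.5, a smaller gap than over all genes. Over all loci, 26 pairs of member promoters had at least 80% identity, all within a chromosome, and 20 of them joined genes of the same LAD state. Of the 26 pairs, 15 lay within the same locus, where members often share a LAD. The share of pairs of the same state over all pairs of member promoters was not taken. The 20 therefore cannot say whether promoter likeness and LAD state go together.

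Genes of the KRAB zinc finger pathway, Trim28 and its partners with Zfp57, lay outside LADs with 1 exception. Of 21 such genes, 1 was in a Nanopore LAD and 0 in Illumina LADs, where 28.9 and 25.4% of all protein-coding genes were. Trim28, the corepressor, lay 52.4 kb outside by Nanopore and 32.4 kb by Illumina, and Setdb1, the methyltransferase, lay 1040.4 kb outside in both. Resf1, which encodes a regulator of retroelement silencing, was the exception: it lay 122.5 kb inside a Nanopore LAD and 1202.5 kb from the nearest Illumina LAD. Zfp57, a KRAB zinc finger gene that guards imprinted methylation, lay 94.1 kb outside in both lists.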

How the data were processed

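The deposited values used were 2 lists of LAD intervals in mouse N2A cells that the authors made by Nanopore and by Illumina sequencing, as coordinates without scores, p-values or signal. The submitters' processing notes name the tools minimap2, bedtools, SAMtools and deepTools, with no version or role, and 2 builds, of which mm10 is the mouse one. How LADs were called, and from which samples, is not stated there. Per the labels' protocols, Nanopore libraries were made from 2.5 µg of DNA cut at marked sites with DpnI. The other deposited list, CTCF peaks in human cells, was not used.

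On chromosomes 1 to 19 and X, 1174 Nanopore and 1149 Illumina LADs were kept, with 100% of borders on a 20 kb grid. Genes came from GRCm38.p6, and 108 protein-coding genes that start below 3 Mb were left out. A gene was in a LAD where its midpoint was. With no values per sample, no test was made, and distances are to the nearest border of any LAD. Members and lists were chosen with earlier results of these data known. Every member may be named; loci with most members, disagreements, partly covered genes and scattered genes in both lists were given in full, and of the pathway list (proteins that work with KRAB zinc fingers) Trim28, Setdb1 and those in a LAD, with Zfp57 and the chromosome 2 promoters picked after their values were seen. Zinc finger genes were symbols Zfp with a number, Zscan, Zkscan, Zik, Zim and Rex2. Identity of promoters used edit distance (edlib 1.3.9). The planned count of zinc fingers per protein was not made, as no protein table was used. Interval functions were tested on simulated data. Computation used pandas 2.3.3 and numpy 2.4.6 under Python 3.11.15, with matplotlib 3.10.9. Binomial confidence intervals, by scipy 1.17.1, served only to label how far an alternative stood from its main value. They treat members as separate observations, so they are not given here.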

Additional observations from a re-analysis of the deposited data

How the results depend on the processing

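No paired analysis was possible because the lists pool samples and carry no replicate. For the same reason no replicate could be left out, and the clustering rule by protein was not run. Chromosome X holds no member, so leaving it out changed nothing. The member shares by Nanopore ran from 56.0 to 71.2%, and those by Illumina from 50 to 65.6%, over 22 alternatives each, with the lowest without chromosome 4 in both; leaving out each chromosome other than 17 and X, and leaving out Zfp955a and Zfp955b, were chosen after seeing the data. By any overlap 68.8 and 60.9% of members were in LADs, against 30.4 and 26.6% of all genes, and by whole gene 62.5 and 57.8%, against 26.8 and 23.5%. The difference of clustered over scattered members stayed above 0 in all 27 alternatives of each list, at 17.4 to 54.0 points by Nanopore and 4.17 to 47.1 points by Illumina. These alternatives reuse the same genes and count members, not loci, so they do not show how far chance could move the difference. The Illumina value of 47.1 points, with at least 1 neighbour as the rule, rests on 6 scattered members. Without chromosome 4 the Illumina difference was 14.3 points. Depth is unknown, so what it limits could not be assessed.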
